A study of Mus musculus with 8 samples.

Results

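The rows described here are those of amino acid transporters and their close relatives in a poly(A) RNA sequencing study of Klf2 in B-cell progenitors. They are the rows of the deposited gene table whose symbol begins with Slc1a, Slc6a, Slc7a, Slc36a, Slc38a or Slc43a, with Slc3a1 and Slc3a2 added. In all, 64 of 38918 rows met that rule. BMiFLT3 (15-3) is a line of pro-B cells from a mouse B-cell precursor acute lymphoblastic leukaemia. The cells were infected with a retrovirus for blue fluorescent protein (BFP, the control) or for Klf2, a Krüppel-like zinc-finger protein that binds DNA. The column names carry BFP in either group, and the Klf2 cells may therefore express it too. Each construct was sequenced in 4 lanes, which make up the 8 samples, and each set of 4 was counted as 1 library because its lanes differed by about sampling noise. No replicate check of the construct was therefore possible, and no p-value is given.

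Amino acid transporters set which amino acids enter a cell, leave it, or move between its lysosomes and cytosol. The heavy chain encoded by Slc3a2 carries light chains of the SLC7 family to the cell surface, where they exchange amino acids. Members of SLC1 and SLC38 bring in glutamine and other neutral amino acids, and dividing lymphoid cells draw on these for protein and nucleotide synthesis. The names of the families are wider than the function: some SLC6 members carry taurine, creatine or neurotransmitters, Slc43a3 carries purine nucleobases, and Slc7a6os is no transporter and takes its name from its neighbour Slc7a6.

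The BFP library held 30133978 exon reads and the Klf2 library 30835450, with 7506567 to 7741626 in a lane. Levels of a gene between libraries are in CPM (exon reads relative to library size, after TMM scaling), and levels between genes are in the deposited RPKM, which also divides by exon length. Every ratio divides the CPM of the Klf2 library by that of BFP and has a 95% exact interval that covers counting error of reads only. Klf2 itself was at 113 CPM against 10.1 CPM, from 3364 and 314 reads, for a ratio of 11.1 (9.93 to 12.6). Of 13 B-lineage markers with a row, 11 reached 1 CPM, and none of these was called, where 8.12% of all rows were. The interval lay above 1 for 4 of the 11 and below 1 for 7, with ratios from 0.746 (Blnk) to 1.49 (Vpreb1). The recombinase genes Rag1 and Rag2, which pro-B cells use to rearrange immunoglobulin genes, had at most 7 reads in a library.

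Of the 64 rows, 24 reached 1 CPM in at least 1 library, and 40 did not. A row was called when its ratio was at least 2-fold in either direction and its interval excluded 1. Of all 10850 rows at or above 1 CPM, 8.12% were called. No transporter row was called higher, where 2.45% of all such rows were. The 2 called lower were Slc6a9 and Slc38a7, among 24, where 5.67% of all such rows were called lower. At this depth small differences also have intervals that exclude 1. The interval lay wholly below 1 for 13 of the 24 and wholly above for 4, against 37.3% and 37.1% of all rows. In 16 of the 24 the lanes of the libraries did not overlap in CPM, against 62.9% of all rows. The median log2(CPM + 1) difference was -0.14 for the 24 rows and -0.01 for all 10850, and scaling on the lowest quintile of genes by expression turned it to 0.04, where the median of all rows became 0.19. The same scaling gave 557 higher and 412 lower rows over the whole table, against 266 and 615 with TMM. All exon reads of the 64 rows together made 3343 CPM in Klf2 and 3702 CPM in BFP, for a ratio of 0.903 (0.895 to 0.911).

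**Figure D1:**
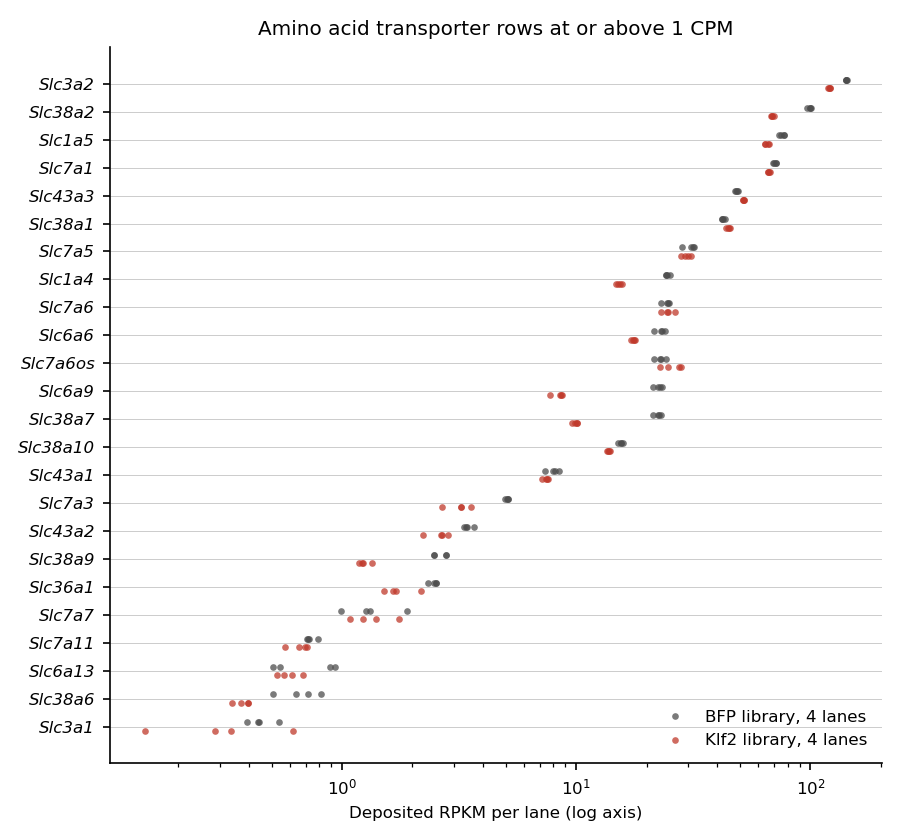
Deposited RPKM (log axis) of the 24 rows at or above 1 CPM in each of the 4 BFP lanes (grey) and the 4 Klf2 lanes (red), ordered by the BFP level. Slc3a2 was highest and Slc3a1 lowest in both libraries, and the Klf2 lanes of Slc6a9, Slc38a7 and Slc38a9 lie well to the left of the BFP lanes.

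**Figure D2:**
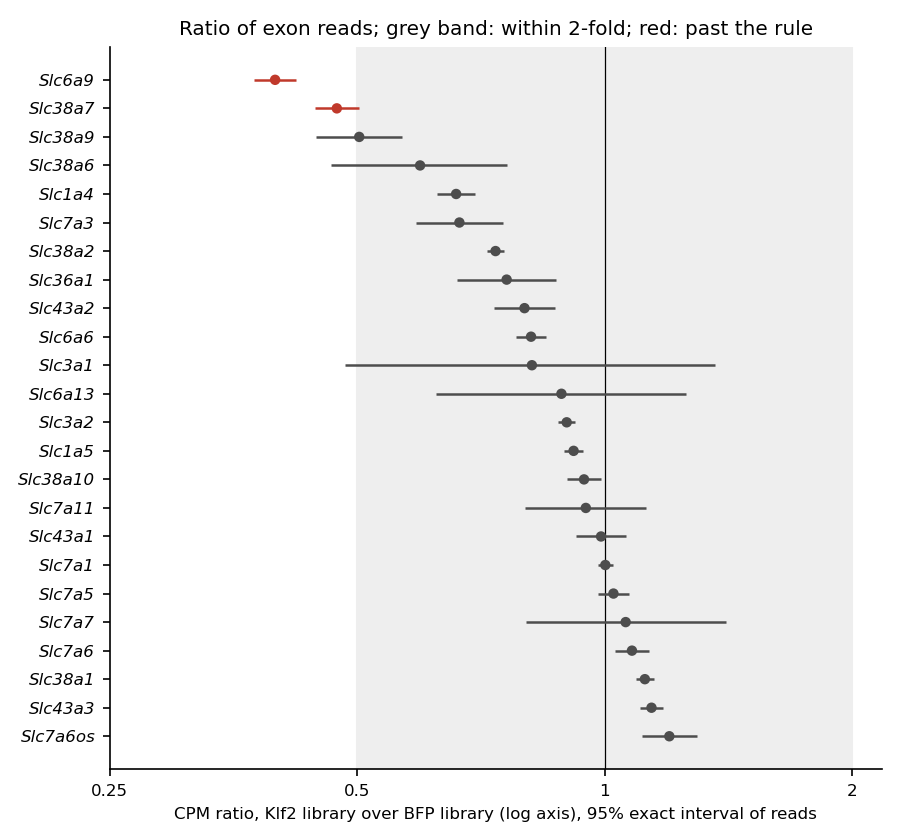
CPM ratio of the Klf2 over the BFP library (log axis) for the same 24 rows, with 95% exact intervals of reads. The grey band marks ratios within 2-fold, and the rows past the rule, Slc6a9 at 0.397 and Slc38a7 at 0.472, are red.

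The glycine transporter gene Slc6a9, also known as GlyT1, was the member furthest below the BFP library. It lies on chromosome 4, 117834506 to 117875198 (mm10, plus strand), and its exon model is 5141 bases long. Lanes 1 to 4 held 968, 1024, 1035 and 1065 reads in BFP and 401, 404, 359 and 398 in Klf2. All 4 Klf2 lanes thus lay below all 4 BFP lanes. In CPM the gene was at 52.3 in Klf2 against 132 in BFP, for a ratio of 0.397 (0.374 to 0.421). Only 25.5% of its exon reads were uniquely placed, and on those, 396 against 1044 reads, the ratio was 0.396 (0.352 to 0.445). On the other strand 3 gene models overlap it, Gm17114, Ccdc24 and B4galt2, all under 1 CPM in both libraries. Slc6a9 was past the rule in all 13 settings of scaling, floor, reads and lanes. Red-cell precursors also use this transporter. Of 9 erythroid and megakaryocyte markers with a row, 2 reached 1 CPM, and 1 of these was called lower, where 5.67% of all rows were. That gene, Hbb-bt, was at 41.3 CPM in Klf2 against 85.9 CPM in BFP with 22.03% of reads uniquely placed. The other, Itga2b, had a ratio of 0.694 (0.467 to 1.02). Klf1, under 1 CPM, had 17 reads in each library. Hba-a1 and Alas2 had no read in either library. The summed level of the list was 42.0 to 46.3 CPM in the Klf2 lanes and 86.7 to 92.05 CPM in the BFP lanes. Nearly all of that sum was Hbb-bt. Whether red-cell precursors were present, or had a part in the Slc6a9 result, was not tested.

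The other SLC6 members were less far apart or nearly silent. Slc6a6, the taurine transporter gene, was at 132 CPM in Klf2 against 162 CPM in BFP, for a ratio of 0.814 (0.780 to 0.848), from 966 to 1002 and 1179 to 1304 reads per lane. The GABA transporter gene Slc6a13 had 63 and 74 reads, and its lanes overlapped. Of the 21 SLC6 rows only these 3 reached 1 CPM, and 14 had no read in either library.

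Slc38a7 and Slc38a9, both of which encode proteins of the lysosomal membrane, stood next in order. Slc38a7 (chromosome 8, 95835920 to 95853539, minus strand) exports glutamine and asparagine from the lysosome. Its lanes held 778, 834, 819 and 857 reads in BFP and 374, 377, 359 and 382 in Klf2. The Klf2 level of 49.9 CPM stood against 106 CPM in BFP, for a ratio of 0.472 (0.444 to 0.502), with all reads uniquely placed. Scaling on the lowest quintile of genes, which moved every ratio upwards, gave 0.544 and ended this call. Slc38a9 (chromosome 13, 112660766 to 112738743, plus strand) is the lysosomal arginine sensor of mTORC1, the kinase complex that couples growth to amino acid supply. It had 220, 195, 195 and 222 reads per BFP lane and 109, 95, 99 and 99 per Klf2 lane. At 13.5 CPM against 26.8 CPM its ratio was 0.503 (0.445 to 0.567), just short of the rule, and it passed in 6 of 13 settings. In both genes no Klf2 lane reached the lowest BFP lane.

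The proton-coupled transporter gene Slc36a1, whose protein also works at the lysosome, was at 12.05 CPM in Klf2 against 15.9 CPM in BFP, for a ratio of 0.760 (0.661 to 0.872). Lysosomal carriers outside the rule came from a list of 22 other carriers of amino acids or small peptides, 13 of them at or above 1 CPM, of which 2 were called lower and none higher. The median log2 difference of that list was 0.09. The pair called lower were Ctns, the lysosomal cystine exporter, at 11.9 CPM against 31.8 CPM (ratio 0.373, 0.330 to 0.422), and Pqlc2, the lysosomal exporter of cationic amino acids, at 7.496 against 19.5 CPM (ratio 0.385, 0.329 to 0.450). Slc17a5, the sialic acid exporter of the lysosome, had a ratio of 0.504 (0.438 to 0.578), and Slc15a4, a histidine and peptide transporter of endolysosomes, of 0.632 (0.583 to 0.686). Taking the carriers of these lists that are known at the lysosome, a grouping made after the values were seen, 7 of 9 had an interval below 1 and none above, and 3 of the 9 were called lower. Over all rows those shares were 37.3% below, 37.1% above and 5.67% called lower, and since the grouping followed the values nothing is read from its counts. The intervals of Slc15a3, at 0.999 (0.789 to 1.26), and Mfsd12, at 1.06 (0.975 to 1.15), included 1. Of the 13 carriers outside the rule at or above 1 CPM, 5 had an interval above 1 and 4 below. The mitochondrial aspartate and glutamate carrier gene Slc25a12 had the highest ratio of these 5. It was at 107 against 66.9 CPM, for a ratio of 1.603 (1.52 to 1.69), under the rule.

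Promoter windows of RefSeq (GRCm38.p6, 250 bases before to 50 after a start) were found for 18 of the 24 rows, in 29 windows. They were searched on both strands for CACGTG, the E-box that lysosomal genes often hold, and for TGATGNAA, the core of the element that ATF4 binds during amino acid shortage. The E-box stood in 3 of the 18 genes (16.7%), Slc38a7, Slc36a1 and Slc43a1, against 12.2% of all genes at or above 1 CPM with a window. The Slc38a9 window held none. TGATGNAA stood in Slc7a11, Slc1a4 and Slc7a7 (16.7%, against 2.76%), or in 4 of the 29 windows (13.8%, against 2.28%). The Slc7a7 matches lay in windows of starts upstream of the deposited gene model, and the window at the start of that model held none. A match is a string of letters in a window and no evidence of binding. The windows of the lysosomal members with a match and of the cystine transporter Slc7a11, which holds 2 matches facing each other, are shown on the strand of the gene, the match in capitals.
Slc38a7: gtgattcaggctCACGTGttacttgagtcg
Slc36a1: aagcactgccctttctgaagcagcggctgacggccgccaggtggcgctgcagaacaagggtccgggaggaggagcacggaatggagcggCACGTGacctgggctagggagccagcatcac
Slc7a11: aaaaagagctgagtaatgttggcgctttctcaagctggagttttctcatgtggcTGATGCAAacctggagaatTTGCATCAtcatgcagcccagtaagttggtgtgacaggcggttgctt
The Slc38a7 stretch is 30 bases (chr8:95853508-95853537, minus strand), and it lies inside the deposited gene model, which starts upstream of the RefSeq start. The Slc36a1 stretch (chr11:55204220-55204339, plus strand) and the Slc7a11 stretch (chr3:50443614-50443733, minus strand) are the 120 bases before the start. A further E-box of Slc36a1 spans its start. CCACACCC, a CACCC box of the kind that Krüppel-like factors bind, stood in the windows of Slc3a2 and Slc6a13, 2 of 18 genes (11.1%), against 4.51% of genes at or above 1 CPM. The looser CCNCNCCC, which takes in CCACACCC, stood in 13 of 18 (72.2%) and in 72.1% of those genes.

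The heavy chain Slc3a2, known at the cell surface as CD98, had the highest level per length of any member. Its deposited RPKM was 142 to 143 in the BFP lanes and 119 to 122 in the Klf2 lanes, and the lanes of the libraries did not overlap. The ratio in CPM was 0.899 (0.878 to 0.921), and 1.04 with scaling on the lowest quintile. Slc7a5, the light chain LAT1 that takes up leucine and other large neutral amino acids, was at 133 CPM in Klf2 against 130 CPM in BFP. Its ratio of 1.02 (0.981 to 1.07) had an interval that included 1, and its lanes overlapped. The predicted gene Gm20388 spans the same locus on the other strand, 58.9% of Slc7a5 reads were uniquely placed, and on those the ratio was 0.993. Slc7a6, a light chain that exchanges cationic for neutral amino acids, had overlapping lanes and a ratio of 1.08 (1.03 to 1.13), which was 0.961 with scaling on the highest quintile. In RPKM Slc7a5 stood at 21.5% of the Slc3a2 level in BFP and 24.5% in Klf2, and Slc7a6 at 17.03% and 20.5%. On uniquely placed reads per kilobase the Slc7a5 shares were 12.9% and 14.2%, so the order of the light chains depended on how shared reads were counted.

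Other light chains were scarce. Slc7a7, which pairs with the same heavy chain, had 104 reads in BFP and 106 in Klf2. Slc7a11, which imports cystine for glutathione synthesis, had 294 and 268 reads, for a ratio of 0.949 (0.801 to 1.12). Slc7a8 had 2 reads and none. Slc3a1, the heavy chain of kidney and gut cystine transport, stood at 1.19 CPM in BFP and 0.970 CPM in Klf2, the least abundant row past the 1 CPM floor. Its ratio was 0.816 (0.484 to 1.36), but only 27.3% of the reads had a unique placement, and those, 10 against 8, gave 1.30 (0.464 to 3.80). Its partner Slc7a9 had 3 reads in BFP and 1 in Klf2. Of the 6 light and heavy chains at or above 1 CPM, none was called in either direction, where 8.12% of all rows were.

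Arginine and lysine enter chiefly through Slc7a1, the cationic amino acid transporter CAT1. This gene was nearly equal in the libraries, at 608 CPM in Klf2 and 606 CPM in BFP, for a ratio of 1.002 (0.982 to 1.02) from 18156 and 18859 reads. Its lanes overlapped in CPM, and other scalings put the ratio between 0.892 and 1.15. Slc7a3, a related cationic transporter on the X chromosome, was at 14.6 CPM in Klf2 against 21.9 CPM in BFP, for a ratio of 0.666 (0.589 to 0.752). The 4 lanes held 92 to 122 reads in Klf2 and 167 to 171 in BFP, without overlap.

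Glutamine and small neutral amino acids are carried by Slc1a5, Slc1a4, Slc38a1 and Slc38a2, and these did not move as a block. Slc38a2, a sodium-coupled transporter that cells raise when amino acids run short, was at 387 CPM in Klf2 against 525 CPM in BFP, for a ratio of 0.737 (0.719 to 0.754). Its lanes held 4083, 4097, 3971 and 4166 reads in BFP and 2864, 2865, 2878 and 2943 in Klf2. Its neighbour on chromosome 15, Slc38a1, was at 455 against 407 CPM, for a ratio of 1.12 (1.09 to 1.15). The lanes of Slc38a1 did not overlap either, with the Klf2 lanes above, and scaling on the highest quintile brought its ratio to 0.997. Slc1a5, the glutamine exchanger ASCT2, had a ratio of 0.917 (0.892 to 0.942), and 1.06 with scaling on the lowest quintile. Slc1a4, the alanine, serine and cysteine exchanger ASCT1, was at 72.7 against 110 CPM, for a ratio of 0.660 (0.625 to 0.696), with 528 to 556 reads per Klf2 lane and 847 to 876 per BFP lane. The SLC1 genes for glutamate transporters of nervous tissue were at or near 0, with 0 to 7 reads per library.

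The remaining members differed little or were low. Slc38a6, a little-studied relative, had 106 reads in Klf2 against 185 in BFP, for a ratio of 0.596 (0.465 to 0.761), and Slc38a10 a ratio of 0.944 (0.899 to 0.990) that became 1.09 with scaling on the lowest quintile. Of the SLC43 facilitators of leucine and other large neutral amino acids, Slc43a1 had a ratio of 0.990 (0.923 to 1.06) and Slc43a2 of 0.799 (0.733 to 0.870). The nucleobase transporter gene Slc43a3 was at 281 against 247 CPM, for a ratio of 1.14 (1.11 to 1.18). Slc7a6os had the highest ratio of the 24 rows, at 1.199 (1.11 to 1.29). Slc43a3 and Slc7a6os, neither of them an amino acid transporter, were the 2 rows above 1 in each of the 13 settings, while 10 rows were below 1 in each setting that measured them and 12 changed side. With a limit of 1.5-fold in place of 2-fold, 6 of 24 rows were lower and none higher, where 13.9% and 10.2% of all rows were. These 6 were Slc6a9, Slc38a7, Slc38a9, Slc38a6, Slc1a4 and Slc7a3. Below the floor, 27 rows had no read in either library, so that a level of up to 0.0996 (BFP) or 0.0973 (Klf2) CPM before TMM scaling was not detectable. The creatine transporter gene Slc6a8 came nearest the floor, at 0.740 and 0.636 CPM.

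Reads inside a gene but outside its exons, which in poly(A) libraries come mostly from unspliced RNA, were compared at the same scaling for the 21 members with at least 50 of them. Slc6a9, Slc38a7 and Slc38a9 had ratios of 0.450 (0.372 to 0.542), 0.516 (0.411 to 0.644) and 0.511 (0.445 to 0.587) outside exons, each with an interval that overlapped that of the exon reads. For Slc38a9 these reads made 43.1% of the gene's reads in BFP and 43.5% in Klf2. The antisense gene Gm47827 overlaps 16558 bases of Slc38a9 and was not matched to a row, so some of these reads may be its own. Slc7a1 differed: its exon reads were equal, while 2943 reads against 1732 lay outside exons, for a ratio of 1.77 (1.67 to 1.88). Its share of reads outside exons was 13.95% in Klf2 and 8.41% in BFP. In 8 of the 21 members the interval outside exons lay wholly above that of the exon reads, and in none wholly below, where 16.3% and 18.3% of all rows with such reads did. The 8 were Slc1a4, Slc1a5, Slc38a1, Slc38a6, Slc43a1, Slc43a2, Slc43a3 and Slc7a1. Over 9 members the interval outside exons lay above 1 and over 7 below, against 29.9% and 28.1% of all rows. Over the whole libraries, 15.1% of gene reads in Klf2 and 15.2% in BFP lay outside exons.

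**Figure D3:**
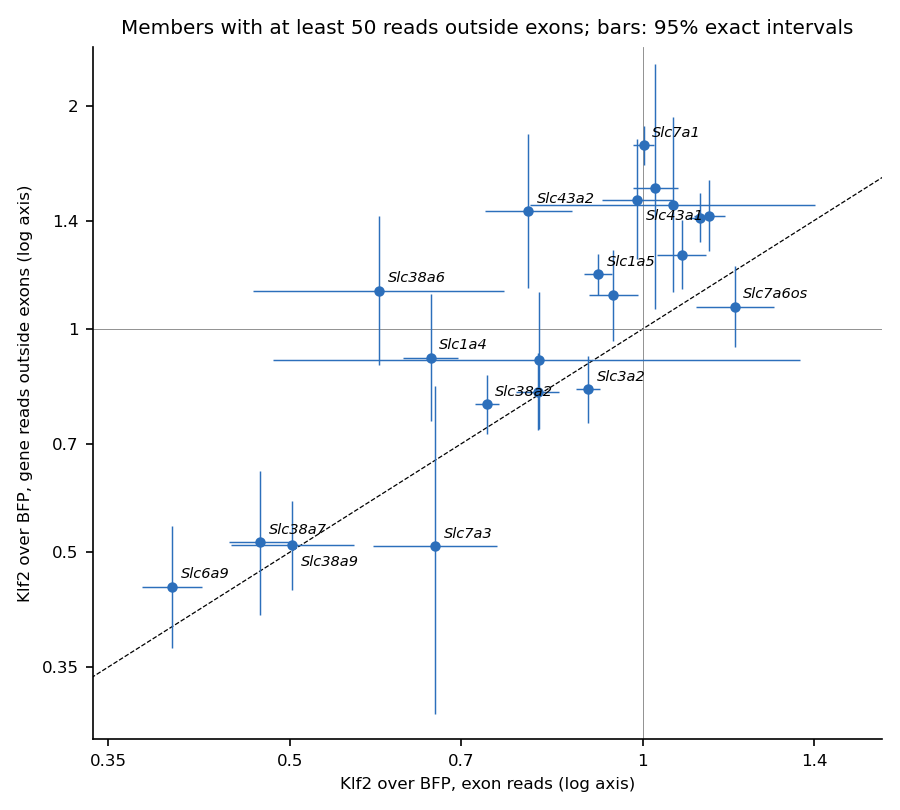
Ratio of the Klf2 over the BFP library for exon reads (horizontal, log axis) and for gene reads outside exons (vertical, log axis) in the 21 members with at least 50 such reads, with 95% exact intervals and a dashed line of equality. Slc6a9, Slc38a7 and Slc38a9 sit low on both axes, and Slc7a1 sits at 1.002 on the horizontal and 1.77 on the vertical axis.

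Genes of the response to amino acid shortage lay on both sides of 1, and those that passed the rule were lower. In this pathway the kinase GCN2, encoded by Eif2ak4, senses uncharged tRNA, and the transcription factor ATF4 then raises transporters and synthetic enzymes. Of 16 genes of this list at or above 1 CPM, 4 were called lower and none higher, where 5.67% and 2.45% of all rows were. The interval lay below 1 for 12 and above 1 for 4, and the median log2 difference was -0.46. The 4 called lower were Atf3, a stress transcription factor (2.31 against 20.4 CPM), and Trib3, a pseudokinase that damps ATF4 (49.8 against 198 CPM). With them were Ppp1r15a, which restores translation after stress (66.2 against 212 CPM), and Ddit3, which encodes CHOP (34.9 against 70.4 CPM). The Ddit3 ratio of 0.496 was near the limit, and the count was 3 without lane 2, without lane 3 or with scaling on the lowest quintile. Cebpg, at 87.9 against 148 CPM, and Atf5, at 149 against 241 CPM, were below 1 without passing. Atf4 itself had a ratio of 1.05 (944 against 903 CPM) and Asns, the asparagine synthetase gene and a standard ATF4 target, of 1.10 (499 against 454 CPM). Eif2ak4 was at 1.23 (1.13 to 1.33) and Chac1, also of this list, at 1.25 (1.07 to 1.46).

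The shares to set beside each count here are 5.67% of all rows called lower and 2.45% called higher. For intervals wholly below and wholly above 1 they are 37.3% and 37.1%. Genes of amino acid sensing by mTORC1 had a median of -0.07 over 36 genes, with 1 called lower and none higher (2 lower with no floor). The interval lay below 1 for 16 and above 1 for 12. Mtor itself lay above, with a ratio of 1.28 (1.25 to 1.30). The gene called lower was Gatsl2, related to the arginine sensors of this pathway, at 3.28 against 14.0 CPM. Rragd, a Rag GTPase that holds mTORC1 at the lysosome, was at 7.80 against 15.1 CPM and passed the rule with total exon reads, the highest quintile, the deposited RPKM or without lane 4. Flcn, which acts on the Rag GTPases, was at 44.0 against 68.4 CPM. Sesn2, a leucine sensor, was at 85.3 against 130 CPM. Enzymes of amino acid synthesis and breakdown had a median of 0.10 over 28 genes, with Ass1, which makes the arginine precursor argininosuccinate, called higher (32.3 against 14.3 CPM). The interval lay above 1 for 16 of these enzymes and below 1 for 6. Unique placement held for only 23.9% of Ass1 reads, whose ratio of 1.96 was under the rule. The serine hydroxymethyltransferase gene Shmt1 was at 283 against 144 CPM, for a ratio of 1.96 (1.89 to 2.04), and passed the rule with scaling on the lowest quintile or without lane 4. Genes of glutathione and cystine use had a median of -0.02 over 14 genes, with 2 called lower, Hmox1 at 36.2 against 79.02 CPM and Nqo1 with 3 reads against 36 (ratio 0.0867, 0.0171 to 0.274). That count was 1 with scaling on the lowest quintile, the deposited RPKM or a floor of 10 CPM. Gclc, the catalytic subunit of the enzyme that makes the glutathione precursor from cysteine, was at 179 against 276 CPM. In the glutathione list the interval lay below 1 for 6 genes and above 1 for 4. All these medians except that of the shortage response lay on the other side of 0 with at least 1 other scaling, as did that of the other carriers.

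**Figure D4:**
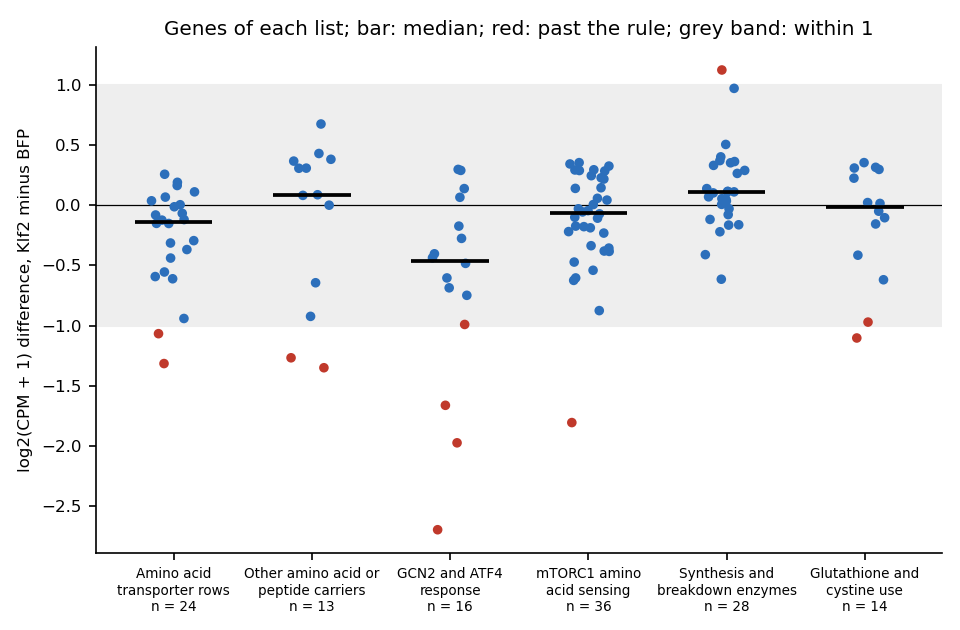
Difference in log2(CPM + 1), Klf2 minus BFP, for each gene at or above 1 CPM of the transporter rows and 5 related lists, with the median as a bar and genes past the rule in red. The shortage response list has the lowest median, -0.46, and its lowest gene is Atf3; the rule is set on the CPM ratio, so Ddit3 and Nqo1 are red inside the band of 1.

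Markers of myeloid cells and of T and NK cells were low but not equal between the libraries. The erythroid marker Hbb-bt, given above with Slc6a9, was more abundant, at 41.3 CPM in Klf2 and 85.9 CPM in BFP. Of 15 myeloid markers with a row, 7 reached 1 CPM, with a summed level of 13.2 to 15.99 CPM in the Klf2 lanes and 21.8 to 27.7 CPM in the BFP lanes. Fcgr1, Tyrobp and Ccr2 were called lower and Mrc1 higher, where 5.67% and 2.45% of all rows were. Csf1r (ratio 0.623) and Cd14 (0.543) had intervals below 1 without passing, and the interval of Ly6c1 included 1. Of the rows under 1 CPM, Mpo, Elane and Ly6g had at most 3 reads in a library, while Lyz2 had 11 in BFP and 20 in Klf2. Of 12 T-cell and NK markers 3 reached 1 CPM, and 6 had no read in either library: Cd3e, Cd4, Cd8a, Cd8b1, Ncr1 and Nkg7. Lat was called higher, and Trac (ratio 1.76) and Zap70 (1.55) had intervals above 1 without passing. The summed level of that list was 20.0 to 22.6 CPM in Klf2 and 10.1 to 12.8 CPM in BFP. Whether these transcripts came from other cells or from the pro-B cells was not tested, nor was any part of other cells in the transporter ratios. In such bulk RNA, fewer cells of a type and less RNA per cell cannot be told apart.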

How the data were processed

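Poly(A) RNA of infected cells was sequenced on an Illumina HiSeq system, per the labels' protocols, which name a pair of library kits without saying which library had which. Per the submitters' processing notes, CASAVA 1.8.2 was used and the build was mm10. The identity of the aligner, counting tool, annotation and strand setting is not given in the sources used here. Overlapping and antisense genes may therefore share reads.

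Per the file headers, the authors deposited 5 kinds of read count for each lane: exon and gene reads, each in total and uniquely placed, and junction reads. The other deposited values are the authors' RPKM, recomputed from their columns to within 0.0258, and a signed fold score per gene, which was not used.

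The quintiles used for alternative scalings are of genes by CPM. Chi-square of lane counts per degree of freedom was 1.30 (BFP) and 1.28 (Klf2) on all exon reads of genes with at least 40 reads, and 1.03 and 1.04 with uniquely placed reads alone, under a limit of 1.5. Lanes were summed to 1 library per group. TMM factors for CPM came from edgeR 4.0.16 (R 4.3.3), with values of 1.03 and 0.969. Ratios have Clopper-Pearson intervals conditional on the summed reads, from scipy 1.17.1. The calling rule was run on counts simulated around the BFP library with counting error alone. Such counts hold no variation between cultures and cannot check the calls for it. Reads outside exons are gene reads minus exon reads. Reads carry no molecular identifiers, so intervals cover counting error only.

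Members, lists and alternatives were chosen with earlier results of these data known. Every member at or above 1 CPM was to be named, with up to 4 genes of each list by log2 difference, those past the rule first. Slc15a3, Slc15a4, Mfsd12, Atf4, Asns, Atf5, Cebpg, Eif2ak4, Chac1 and Mtor, and the markers given beside a result, were named after their values were seen. No row was found for 4 list genes.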

Additional observations from a re-analysis of the deposited data

How the results depend on the processing

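The count of 2 lower members was 3 with DESeq2 size factors, total exon reads, scaling on the highest quintile of genes by CPM or the deposited RPKM, where Slc38a9 joined. It was 1 with scaling on the lowest quintile and 6 with a limit of 1.5-fold. With 1 lane number left out of both groups it ran from 2 to 3, and no member was called higher in any setting. The median log2 difference of -0.14 was -0.21 with total exon reads, 0.036 with scaling on the lowest quintile, -0.27 on the highest, -0.083 with no floor, -0.23 with the deposited RPKM and -0.10 with a pseudocount of 5 CPM. It ran from -0.16 to -0.13 with a lane left out. Over all rows the median was 0.19 and -0.16 with the lowest and highest quintile. A scaling moves every row alike, so the gap between these medians could hardly change and is no check of it. These alternatives hold no variation between cultures, and a difference in library kit between the groups cannot be told apart from the construct. No paired analysis was possible because the lanes of a group are 1 library and no result comes from a test.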
